A study of Mus musculus with 6 samples.

Results

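The Zfp genes are mouse genes of the zinc finger protein series, each named Zfp with a number. The protein-coding genes with such a name and a mean of at least 500 reads over all 6 libraries are described here, 196 of the 359 Zfp genes in a table of 27884 genes. They were selected on their mean raw count over all libraries, both kinds included, so a gene's level in 1 kind of library can decide whether it enters. A mean of at least 500 counts held in both groups of libraries for 178 of them, in IP alone for 3 and in Input alone for 15, so the 15 have fewer counts in IP than in Input by construction. Just inside the minimum lay Zfp235 at 502.5, Zfp748 at 504.0 and Zfp446 at 507.0 mean counts, and just outside it Zfp758 at 485.5, Zfp28 at 484.7 and Zfp970 at 483.8. The name was borne out by the coding sequences, since 191 of the 196 encode at least 1 finger of the Cys2-His2 form.

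The libraries came from the preoptic area of the hypothalamus of female mice aged 17 to 18 weeks that carry both NuTRAP and Pnoc-Cre, so that Cre places EGFP on the ribosomes of cells that express, or have expressed, the prepronociceptin gene Pnoc. IP libraries hold poly(A) RNA bound to ribosomes that were captured with an antibody against GFP. Input libraries hold poly(A) RNA of the whole tissue of the same pools. There were 3 libraries of each kind, each from the punches of 3 pooled animals, and all carried both alleles, so no group without the tag or without Cre was compared. The contrast shows which Zfp transcripts are richer or poorer on tagged ribosomes than in the tissue. A transcript made by fewer cells, one with fewer copies per cell and one less often bound to ribosomes cannot be told apart.

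A Cys2-His2 finger is a short fold in which a pair of cysteines and a pair of histidines hold a zinc ion, and arrays of such fingers read DNA, or less often RNA. Many Zfp proteins also carry a KRAB box, which recruits Trim28 and, through it, the histone methyltransferase Setdb1, and which is best known for silencing retroelements. Zfp genes lie in arrays on several chromosomes that arose by repeated duplication, so that neighbours are often related. Other Zfp proteins lack a KRAB box and act as developmental transcription factors, ubiquitin or SUMO ligases, RNA-binding proteins or ribosome factors.

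The fingers of the members with the largest changes show how alike and how different these coding sequences are. Each line gives 1 finger of 63 bases, the first in the protein with 2 residues between the cysteines, 12 in the loop and 3 between the histidines, on the coding strand from 5′ to 3′, with the codons of the cysteines and histidines in capitals. The sequences are those of the canonical transcripts of GENCODE M39 on GRCm39. The first group of 3 was higher in IP and the second was lower.
Zfp428: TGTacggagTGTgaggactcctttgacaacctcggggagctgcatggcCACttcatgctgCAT
Zfp653: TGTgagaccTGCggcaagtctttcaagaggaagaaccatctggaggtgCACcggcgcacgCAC
Zfp775: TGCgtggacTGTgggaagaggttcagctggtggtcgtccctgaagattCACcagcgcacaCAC
Zfp26: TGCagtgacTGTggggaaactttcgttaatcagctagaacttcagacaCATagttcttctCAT
Zfp142: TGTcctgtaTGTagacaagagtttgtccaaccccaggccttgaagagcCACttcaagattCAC
Zfp84: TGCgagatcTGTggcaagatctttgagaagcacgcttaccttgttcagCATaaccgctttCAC
Among the 6 sequences 12 of the 63 positions hold the same base in all, and any pair shares between 21 and 38 positions. Zfp428 holds this 1 finger, whereas Zfp142 holds 36, the most of any member.

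Total counts lay between 48204567 and 51380354 in IP libraries and between 49068467 and 53056642 in Input libraries, so depth was alike. Pnoc was 2.06 ± 0.22 (SE) higher on the log2 scale in IP, with adjusted p = 0.000472 in edgeR's quasi-likelihood test, which checks the labels. Markers of cells without the tag fell in IP. All 5 astrocyte markers fell, with a summed 74.7 to 109 CPM (counts scaled by TMM-adjusted library size) in IP against 780 to 868 CPM in Input, as did all 5 oligodendrocyte markers, with 509 to 738 CPM in IP against 3962 to 5118 CPM in Input. All 5 microglial, 3 precursor and 3 endothelial markers fell too, with sums of 11.1 to 17.0, 7.23 to 7.98 and 1.49 to 2.49 CPM in IP against 118 to 134, 52.4 to 80.9 and 7.71 to 14.5 CPM in Input, and no listed marker was at 0. Of 5 neuronal markers 1 rose, of 3 markers of GABA neurons 2, and of 8 preoptic genes 3, with summed levels of 7096 to 7900, 1788 to 2445 and 175 to 243 CPM in IP against 5234 to 6399, 1182 to 1336 and 74.0 to 118 CPM in Input. The neuronal markers Map2 (-0.56) and Rbfox3 (-0.06) and the preoptic genes Bmp7 (-0.70) and Hmx3 (-0.14) had negative log2 fold changes, none called. The rest of these markers were at positive values. Most of the neuronal sum was Snap25, with 4191 to 5118 CPM in IP. These shifts accompany every Zfp result below, and their part in those results was not tested. Input replicate 1 stood furthest from the other Input libraries and held the highest Input value for 33 of the 45 Zfp genes called lower, so the main values are also given without it.

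Zfp genes were more often lower than higher on tagged ribosomes. Of the 196 genes 19 rose and 45 fell in IP at an adjusted p under 0.05, which is the threshold used throughout, while 132 did not pass. Over all 18640 genes tested 12.9% were higher and 17.1% lower in IP (30.0% in either direction), and over the 9714 protein-coding genes with the same count minimum 22.0% were higher and 16.8% lower (38.8% in either direction). The share of Zfp genes that rose, 9.69%, was thus below both backgrounds, and the share that fell, 23.0%, was above both. The median log2 fold change of IP over Input was -0.12 over the Zfp genes, -0.07 over all genes tested and 0.07 over the protein-coding genes with the count minimum, and single Zfp genes ranged from -1.59 to 1.35. All IP libraries lay above all Input libraries for 40 Zfp genes and below them for 70, where the backgrounds are 21.7% above and 26.0% below for all genes and 32.9% above and 23.4% below for protein-coding genes with the count minimum.

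Each replicate gave the same direction on balance. IP exceeded its own Input for 80, 86 and 82 of the 196 genes in replicates 1, 2 and 3, with median log2 ratios of -0.14, -0.10 and -0.12. Summed over the 196 genes, the libraries held 6385, 6269 and 6609 CPM in IP against 7367, 6384 and 6636 CPM in Input, so the summed groups overlapped on this scale. Without TMM factors, the 196 genes made up 0.619%, 0.600% and 0.638% of raw counts in IP against 0.758%, 0.655% and 0.700% in Input. By that share every IP library lay below every Input library. The authors' deposited table calls 22 of these genes higher and 45 lower. Of the 178 genes with 500 counts in both groups, 19 rose and 38 fell. The 15 genes that reach the minimum in Input alone had 0 rises and 7 falls, and they stay in all bins, classes and runs below. The counts depended on which library was left out: on leaving out IP replicate 1, 12 rose and 28 fell, for IP replicate 2 it was 13 and 21, for IP replicate 3 it was 9 and 24, and for Input replicate 3 it was 11 and 22. Leaving out Input replicate 1 gave 18 and 34, and Input replicate 2 gave 22 and 41. With each library corrected for gene length and GC content, an alternative added after the data were seen, the balance turned, with 27 higher, 21 lower and a median of 0.05. The 141 Zfp genes below the count minimum that could be tested had a median of -0.59, with 32 lower and 0 higher by edgeR, and 0 higher by DESeq2 or at an unadjusted p under 0.05. The 5084 other protein-coding genes below the minimum had a median of -0.52, with 23.0% lower and 2.01% higher, so the 22.7% of these Zfp genes that fell is near the background.

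**Figure D1:**
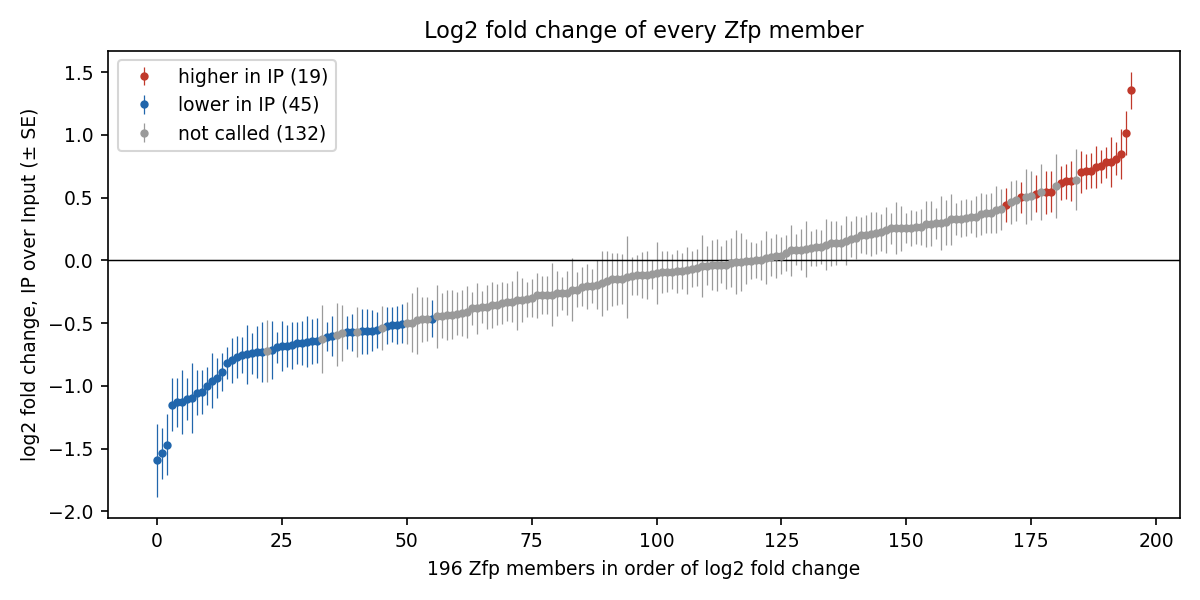
The plot gives the log2 fold change of IP over Input of each of the 196 Zfp genes (y axis, log2 scale) in order of its size (x axis, rank), with bars for ± 1 SE from 3 IP and 3 Input libraries. The 19 genes called higher sit at the right up to 1.35, the 45 called lower at the left down to -1.59, and 132 genes were not called.

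The largest rise was that of Zfp428 (ENSMUSG00000064264, chromosome 7, 24206431 to 24215107, plus strand, mm39). It had 67.6, 63.8 and 60.9 CPM in IP libraries 1 to 3, against 24.0, 29.0 and 22.2 CPM in Input libraries 1 to 3. Every IP library thus held more than 2-fold the level of every Input library. The mean was 64.1 ± 3.37 CPM in IP and 25.1 ± 3.53 CPM in Input (SD, n = 3 each), the log2 fold change 1.35 ± 0.15 (SE), or 2.56-fold, and the adjusted p 0.000508. Zfp428 is also, at 1308 bases, the second shortest of the 196 genes, its transcript is 63.6% GC, and 10.6% of its 75-base windows occur in another gene, Gm50092.

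Zfp653 (chromosome 9, 21966707 to 21982672, minus strand), which encodes a repressor of the nuclear receptor SF-1, had 20.3, 24.6 and 22.8 CPM in IP against 9.45, 11.5 and 12.5 CPM in Input. It was the other Zfp gene to rise by at least 2-fold, with a log2 fold change of 1.01 ± 0.17 (SE) and adjusted p = 0.00387. Zfp775 (chromosome 6, 48578997 to 48600161, plus strand) had 20.4, 16.5 and 19.6 CPM in IP against 8.54, 10.1 and 12.9 CPM in Input. The groups did not overlap (0.84 ± 0.20, adjusted p = 0.0148), but the call was lost on leaving out IP replicate 1 (0.79, adjusted p = 0.0515) or IP replicate 3 (0.82, adjusted p = 0.0545). Zfp775 also shares 14.96% of its 75-base windows with other genes, the most with Gm38804. Zfp444 (chromosome 7, 6175225 to 6196810, plus strand) was among the more abundant risers, with 88.3, 90.8 and 109 CPM in IP against 52.3, 55.7 and 56.5 CPM in Input (0.81 ± 0.13, adjusted p = 0.00328).

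Zfp330, whose product is a nucleolar protein and matches no Cys2-His2 finger, had 54.8, 59.0 and 56.4 CPM in IP against 30.6, 32.5 and 36.1 CPM in Input (0.78 ± 0.13, adjusted p = 0.00317). Zfp369, a relative of the neurotrophin receptor-interacting factor, had 46.4, 42.8 and 41.8 CPM in IP against 28.1, 24.2 and 25.6 CPM in Input (0.75 ± 0.13, adjusted p = 0.00433). In both genes the lowest IP library lay above the highest Input library. Zfp251 had 79.8, 78.1 and 75.3 CPM in IP against 54.9, 41.6 and 45.6 CPM in Input (0.71 ± 0.14, adjusted p = 0.00704), Zfp771 had 63.3, 71.7 and 83.1 CPM in IP against 42.9, 44.4 and 46.0 CPM in Input (0.71 ± 0.14, adjusted p = 0.00697), and Zfp512 had 116, 112 and 122 CPM in IP against 70.4, 70.4 and 87.1 CPM in Input (0.62 ± 0.13, adjusted p = 0.0104). Of the 19 genes called higher, 8 kept the call without any one library, namely Zfp251, Zfp330, Zfp369, Zfp428, Zfp444, Zfp512, Zfp653 and Zfp771. Among these, Zfp330 shares 23.2% of its 75-base windows with other genes, the most with Ube2f. Zfp653 shares 18.3%, the most with Gm49318, and Zfp251 18.2%, the most with Gm62254. Reads of these genes may therefore be mixed, as for Zfp428. Zfp369, Zfp444 and Zfp771 share 0% and Zfp512 shares 0.03%.

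The largest fall was that of Zfp26 (ENSMUSG00000063108, chromosome 9, 20339745 to 20371458, minus strand), a KRAB gene with 22 fingers. It had 7.04, 4.90 and 7.58 CPM in IP libraries 1 to 3, against 26.8, 13.4 and 18.8 CPM in Input libraries 1 to 3. All IP libraries were below all Input libraries, and the Input libraries spread more widely than the IP libraries. The log2 fold change was -1.59 ± 0.29 (SE), or 3.02-fold lower in IP, with adjusted p = 0.00504. Zfp142 (ENSMUSG00000026135, chromosome 1, 74604286 to 74627405, minus strand), whose human counterpart is mutated in a neurodevelopmental disorder, had 6.84, 6.38 and 5.88 CPM in IP against 22.8, 15.8 and 16.9 CPM in Input (-1.54 ± 0.20, adjusted p = 0.00129). It shares 30.7% of its 75-base windows with other genes, mostly Plcd4, so reads of the 2 genes may be mixed.

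Zfp84 had 5.35, 7.09 and 4.88 CPM in IP against 19.8, 12.5 and 15.7 CPM in Input (-1.47 ± 0.24, adjusted p = 0.00341). Zfp652, a repressor that works with the ETO family corepressor Cbfa2t3, had 23.1, 20.4 and 19.9 CPM in IP against 61.5, 35.2 and 44.0 CPM in Input (-1.15 ± 0.21, adjusted p = 0.00510). IP levels of Zfp652 lay within a narrow band while Input replicate 1 stood well above the other Input libraries. Zfp40 had 6.80, 8.13 and 7.94 CPM in IP against 16.7, 15.5 and 17.0 CPM in Input (-1.11 ± 0.17, adjusted p = 0.00252), and Zfp715 had 9.59, 9.41 and 10.5 CPM in IP against 18.6, 20.2 and 20.2 CPM in Input (9.83 ± 0.582 and 19.7 ± 0.940 CPM, SD, n = 3 each; adjusted p = 0.00248). Zfp799 was at 10.4, 9.65 and 12.3 CPM in IP against 23.6, 19.5 and 23.9 CPM in Input (-1.05 ± 0.17, adjusted p = 0.00328). In these 3 genes Input replicate 1 did not stand apart.

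Zfp654 had 13.3, 11.0 and 16.1 CPM in IP against 30.1, 28.1 and 25.5 CPM in Input (-1.05 ± 0.18, adjusted p = 0.00397). Zfp943 had 11.3, 13.9 and 13.9 CPM in IP against 24.4, 27.4 and 23.4 CPM in Input (-0.94 ± 0.16, adjusted p = 0.00376), and Zfp397 had 24.6, 24.3 and 23.0 CPM in IP against 44.0, 42.5 and 40.3 CPM in Input (-0.82 ± 0.13, adjusted p = 0.00248). The groups were apart in all 3 genes, but their calls were lost under the length and GC correction, with log2 fold changes of -0.39, -0.36 and -0.32. A fall of at least 2-fold was called for 10 genes and a rise as large for 2. Of the 10, Zfp26, Zfp142, Zfp84 and Zfp40 reach the count minimum in Input alone, and among the genes that reach it in both groups there were 6 such falls and 2 such rises. Under the length and GC correction neither rise reached 2-fold, with log2 fold changes of 0.92 for Zfp428 and 0.82 for Zfp653. Zfp330 was then at 0.97 and Zfp369 at 0.93. Of the falls, Zfp142 (-1.33), Zfp84 (-1.31) and Zfp26 (-1.04) stayed beyond 2-fold. The others were Zfp609 (-0.99), Zfp462 (-0.87), Zfp652 (-0.84), Zfp932 (-0.81), Zfp799 (-0.73), Zfp40 (-0.59) and Zfp654 (-0.39). Of the 45 genes called lower, 18 kept the call without any one library. Across every setting tried, including leaving out both libraries of a replicate, only Zfp428 among the rises and Zfp142 among the falls stayed called.

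**Figure D2:**
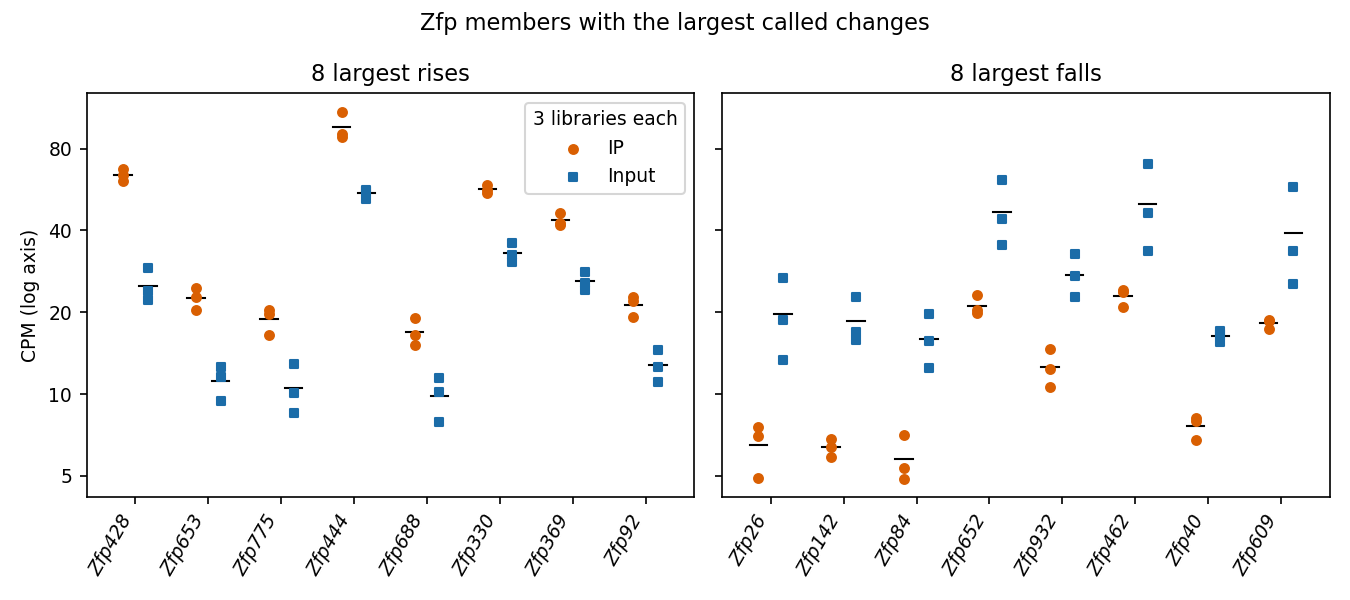
Each point is the CPM (y axis, log scale) of 1 library for the 8 Zfp genes with the largest called rises (left) and falls (right), with 3 IP libraries (circles) beside 3 Input libraries (squares) and a bar at each group's mean. The IP libraries of Zfp428 sit between 60.9 and 67.6 CPM, all above its Input libraries, and those of Zfp26 sit between 4.90 and 7.58 CPM, all below its Input libraries.

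Of the 5 Zfp genes with the most reads, Zfp91 fell (values below) and the other 4 did not pass. Zfp706, a small protein with 1 finger known from stem cell differentiation, had the highest count, with 446, 455 and 529 CPM in IP against 362, 439 and 399 CPM in Input (0.25 ± 0.13, adjusted p = 0.168). Zfp365, which binds Disc1 and takes part in neurite growth, had 265, 266 and 317 CPM in IP against 591, 286 and 305 CPM in Input (-0.48 ± 0.27, adjusted p = 0.211). In Zfp365 Input replicate 1 alone lay outside the range of the IP libraries. Zfp106, an RNA-binding protein needed by motor neurons and muscle, had 202, 228 and 237 CPM in IP against 311, 184 and 229 CPM in Input (-0.12 ± 0.19, adjusted p = 0.686), and Zfp612 had 108, 109 and 129 CPM in IP against 96.6, 118 and 106 CPM in Input (0.11 ± 0.14, adjusted p = 0.600). Both pairs of groups overlapped.

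Per length, on the authors' deposited FPKM scale (reads scaled by gene length and by library), Zfp706 also led with a mean of 95.7 in IP and 78.7 in Input. Zfp365 followed with 54.3 in IP and 74.0 in Input, Zfp428 with 49.0 in IP and 18.8 in Input, and Zfp771 with 36.2 in IP and 21.7 in Input. On this scale Zfp428 was below Zfp771 in Input and above it in IP. The median Zfp gene was at 4.20 FPKM in IP and 4.57 FPKM in Input, so most Zfp transcripts were far scarcer than these 4.

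Of 35 Zfp genes on a list of those with a known role, 27 were expressed at the count minimum, and of these 1 was higher and 13 lower in IP (median log2 fold change -0.52), where the backgrounds are 12.9% higher and 17.1% lower over all genes and 22.0% and 16.8% over protein-coding genes with the count minimum. Falls numbered 7, 5 and 5 on leaving out IP replicates 1, 2 and 3, 5 on leaving out Input replicate 3 and 11 on leaving out Input replicate 1. With the length and GC correction it was 6. The list was chosen with results of these libraries known.

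Among factors tied to ribosomes, Zfp622, whose yeast counterpart matures the large ribosomal subunit, was the gene that rose, with 99.3, 93.2 and 94.7 CPM in IP against 61.8, 72.8 and 68.3 CPM in Input (0.50 ± 0.12, adjusted p = 0.0164). Its call was lost without IP replicate 1 (0.48, adjusted p = 0.0631), IP replicate 2 (0.52, adjusted p = 0.0504), IP replicate 3 (0.52, adjusted p = 0.0536) or Input replicate 3 (0.55, adjusted p = 0.0594), though the groups stayed apart. Zfp598, the ubiquitin ligase that marks collided ribosomes, had 25.6, 27.4 and 28.1 CPM in IP against 24.5, 21.5 and 26.1 CPM in Input (0.17 ± 0.14, adjusted p = 0.408).

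Among genes of neural development and chromatin, Zfp462, whose human counterpart is mutated in a developmental disorder, had 24.1, 23.8 and 20.9 CPM in IP against 70.4, 33.6 and 46.5 CPM in Input (-1.13 ± 0.25, adjusted p = 0.0118). Zfp609, a partner of the cohesin loader Nipbl that acts in cortical neuron migration, had 18.7, 18.5 and 17.4 CPM in IP against 57.9, 25.4 and 33.7 CPM in Input (-1.10 ± 0.28, adjusted p = 0.0192). Both were below every Input library in IP, and in both Input replicate 1 was the highest by a wide margin. The call of Zfp462 was lost without IP replicate 3 (-1.06, adjusted p = 0.0550), and that of Zfp609 without IP replicate 2 (-1.11, adjusted p = 0.0615) or IP replicate 3 (-1.06, adjusted p = 0.0741). Zfp281, a repressor in pluripotent cells, had 24.7, 24.1 and 26.5 CPM in IP against 50.9, 36.0 and 39.0 CPM in Input (-0.74 ± 0.16, adjusted p = 0.0111). Zfp24, required for myelination by oligodendrocytes, had 33.2, 32.5 and 33.1 CPM in IP against 55.6, 49.9 and 54.4 CPM in Input (-0.69 ± 0.12, adjusted p = 0.00418). Both kept the call without any one library, but that of Zfp281 was lost under the length and GC correction (-0.35, adjusted p = 0.0992). For Zfp24 the fall accompanied those of the oligodendrocyte markers given above, whose part was not tested.

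Zfp932, which silences endogenous retroviruses, had 14.7, 10.6 and 12.4 CPM in IP against 32.7, 27.1 and 22.7 CPM in Input (-1.13 ± 0.20, adjusted p = 0.00418). Of its 75-base windows 58.7% occur in another gene, so its reads may be shared. Zfp445, which guards imprinted genes, had 73.6, 65.6 and 67.2 CPM in IP against 128, 82.2 and 94.9 CPM in Input (-0.57 ± 0.18, adjusted p = 0.0418), and its call was lost on leaving out any library but Input replicate 2. Zfp91, a ubiquitin ligase of the NF-kB pathway, had 81.4, 99.5 and 96.7 CPM in IP against 137, 149 and 128 CPM in Input (-0.58 ± 0.13, adjusted p = 0.0132). Zfp638, an RNA-binding protein that silences unintegrated retroviral DNA, had 63.6, 63.2 and 55.8 CPM in IP against 106, 78.9 and 87.5 CPM in Input (-0.57 ± 0.15, adjusted p = 0.0200). The groups of all 4 genes were apart, but the call of Zfp91 was lost without IP replicate 1 (-0.49, adjusted p = 0.0604) or Input replicate 3 (-0.59, adjusted p = 0.0504), and that of Zfp638 without 4 of the 6 libraries taken one at a time. Under the length and GC correction Zfp638 was at -0.05 (adjusted p = 0.789), Zfp445 at -0.27 (adjusted p = 0.158) and Zfp91 at -0.37 (adjusted p = 0.101), none of them called. The others that fell were Zfp131, Zfp148, Zfp516, Zfp608 and Zfp644, with log2 fold changes between -0.71 and -0.52, and each of these calls was lost without 3 or 4 of the 6 libraries taken one at a time. Under the length and GC correction Zfp148 was at -0.02, Zfp644 at -0.09, Zfp131 at -0.36 and Zfp608 at -0.41, none of them called, while Zfp516 kept its call at -0.66. Among them are Zfp644, a partner of the histone methyltransferases G9a and GLP, and Zfp516, an activator of the brown fat gene Ucp1.

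The related developmental factors Zfp423 and Zfp521, which hold 27 fingers each, did not pass in the unpaired fit. Zfp423 had 65.3, 97.1 and 77.8 CPM in IP against 35.6, 70.5 and 53.3 CPM in Input (0.59 ± 0.25, adjusted p = 0.113), and Zfp521 had 50.3, 33.5 and 37.7 CPM in IP against 37.7, 30.0 and 35.1 CPM in Input (0.24 ± 0.18, adjusted p = 0.357). Each replicate of Zfp423 was higher in IP than in its own Input, although the groups overlapped, and with the replicate as a block it passed (0.63, adjusted p = 0.00790). The SUMO ligase Zfp451, the longest of the 196 genes, had 52.1, 54.0 and 51.4 CPM in IP against 75.0, 52.8 and 65.8 CPM in Input (-0.30 ± 0.15, adjusted p = 0.176). Zfp410, the dedicated activator of the chromatin remodeller gene Chd4, had 28.0, 30.5 and 26.0 CPM in IP against 23.0, 22.3 and 25.4 CPM in Input (0.26 ± 0.14, adjusted p = 0.203). Zfp207, a spindle assembly factor that binds Bub3, had 94.1, 95.3 and 93.6 CPM in IP against 98.2, 111 and 97.0 CPM in Input (-0.11 ± 0.12, adjusted p = 0.510), but under the length and GC correction it was higher in IP and passed (0.51, adjusted p = 0.0179, and 0.52, adjusted p = 0.00817, with the replicate block).

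**Figure D3:**
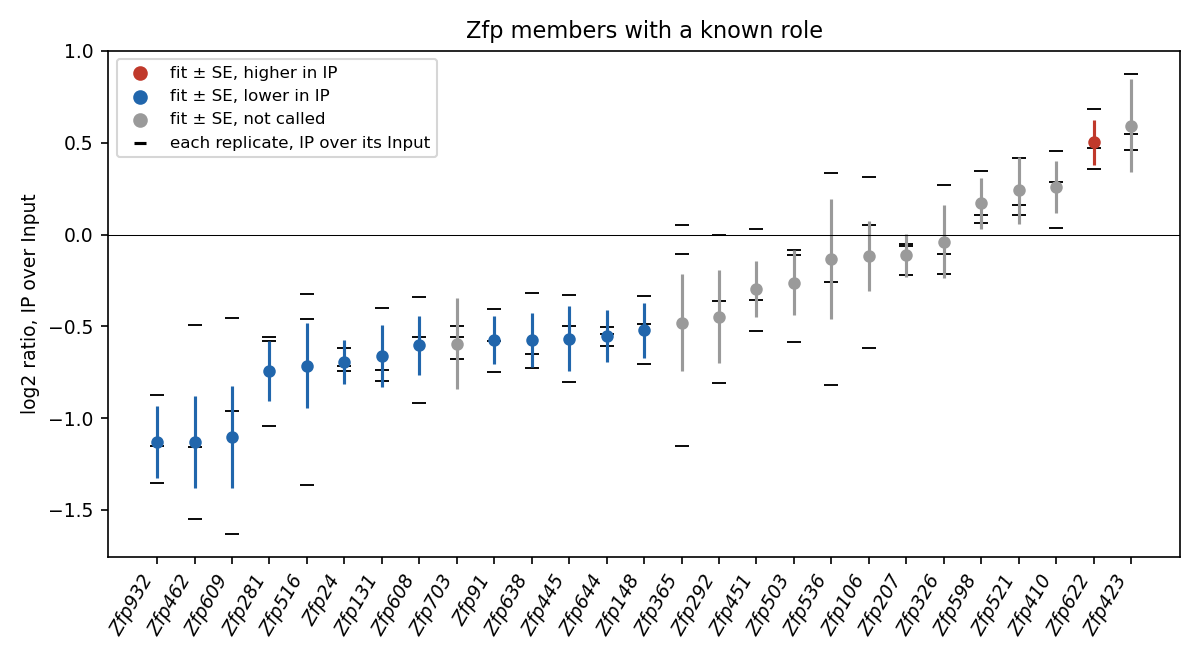
The 27 expressed Zfp genes of the role list (x axis) are shown with the fitted log2 fold change of IP over Input (y axis, points with ± 1 SE) and the log2 ratio of each of the 3 replicates (dashes). Of these, 13 were called lower, down to -1.13, and Zfp622 alone was called higher, at 0.50.

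Long Zfp genes were lower on tagged ribosomes than short ones. Divided into 3 bins of about equal size by the table's gene length, the 65 shortest (1258 to 4364 bases) had a median log2 fold change of 0.08, the 66 in the middle (4368 to 6790 bases) of -0.11 and the 65 longest (6793 to 15839 bases) of -0.34. Of the shortest 9 rose and 7 fell, of the middle 7 rose and 16 fell, and of the longest 3 rose and 22 fell. Protein-coding genes with the count minimum were ordered in the same way. Of those in the length range of the shortest bin 32.2% were higher and 10.7% lower (42.9% in either direction) with a median of 0.30. The middle range had 18.3% higher and 18.1% lower (36.4%) with a median of 0.01, and the longest range 7.68% higher and 23.4% lower (31.0%) with a median of -0.16. In each bin the Zfp median was thus below that of protein-coding genes of the same length, Zfp genes included, by a margin that was not tested. The IP libraries lay wholly above Input for 17, 15 and 8 genes of the shortest, middle and longest bin and wholly below it for 10, 26 and 34, where the backgrounds are 46.1%, 29.2% and 15.5% above and 14.6%, 26.3% and 32.9% below.

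Summed levels show the same contrast. The longest bin held 2278, 2222 and 2268 CPM in IP against 3086, 2390 and 2627 CPM in Input, and the shortest bin 1466, 1391 and 1474 CPM in IP against 1313, 1350 and 1320 CPM in Input. IP was below every Input library for the long genes and above every Input library for the short ones. The difference of medians between the longest and the shortest bin was -0.43 in the fit and -0.65, -0.30 and -0.43 within replicates 1, 2 and 3. Without Input replicate 1 it was -0.38. The count of falls in the longest bin was 10, 8 and 12 without IP replicates 1, 2 and 3 and 9 without Input replicate 3, and with library totals alone as the scaling the median of the shortest bin was -0.02. Across the 196 genes the log2 fold change had a Spearman rho of -0.37 with gene length, against -0.41 across the 9518 other protein-coding genes with the count minimum. Genes are not independent replicates, and these values only describe the scatter.

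Medians spread more widely over GC content than over length. In the lowest bin by GC content of the canonical transcript (36.8% to 42.6%, 65 genes) 0 rose and 27 fell, with a median of -0.45. In the middle bin (43.1% to 50.4%, 65 genes) 6 rose and 10 fell, with a median of -0.08, and in the highest bin (50.5% to 66.6%, 66 genes) 13 rose and 8 fell, with a median of 0.25. Among protein-coding genes with the count minimum in the same GC ranges 7.89% were higher and 31.2% lower (39.1% in either direction) in the lowest, 16.4% and 18.8% (35.1%) in the middle and 29.8% and 11.7% (41.5%) in the highest, with medians of -0.25, -0.02 and 0.25. In the highest bin the Zfp median therefore equalled that of the protein-coding genes in the range at 2 decimals. In the lowest bin it was below that of the protein-coding genes in the range by a margin that was not tested. These ranges include the Zfp genes themselves. The GC bins also include genes that reach the count minimum in Input alone, among them Zfp26 and Zfp40 in the lowest bin.

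The absence of rises in the lowest GC bin also held at an unadjusted p under 0.05 and with DESeq2, with 1 rise when Input replicate 2 was left out and 4 after the length and GC correction. IP lay wholly below Input for 44 of these 65 genes and wholly above it for 0, where the background is 42.8% below and 13.2% above. In the middle bin it lay above for 14 and below for 16, with backgrounds of 27.0% above and 26.8% below, and in the highest bin above for 26 and below for 10, with backgrounds of 42.4% above and 15.8% below. The falls of the lowest bin numbered 17, 13 and 16 without IP replicates 1, 2 and 3, 13 without Input replicate 3 and 21 without Input replicate 1. The highest bin exceeded the lowest by 0.82, 0.71 and 0.50 in median log2 ratio within replicates 1, 2 and 3. Across the 196 genes rho with GC content was 0.50, against 0.29 across 9516 other protein-coding genes, while gene length and GC content were related at only -0.16. After correction for length and GC over all genes rho with GC content was 0.09. Within the lowest GC bin the 22 genes that were also among the longest were all at a negative log2 fold change, with 11 called lower and a median of -0.54, whereas the 29 genes both short and GC-rich had 7 higher, 2 lower and a median of 0.33.

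**Figure D4:**
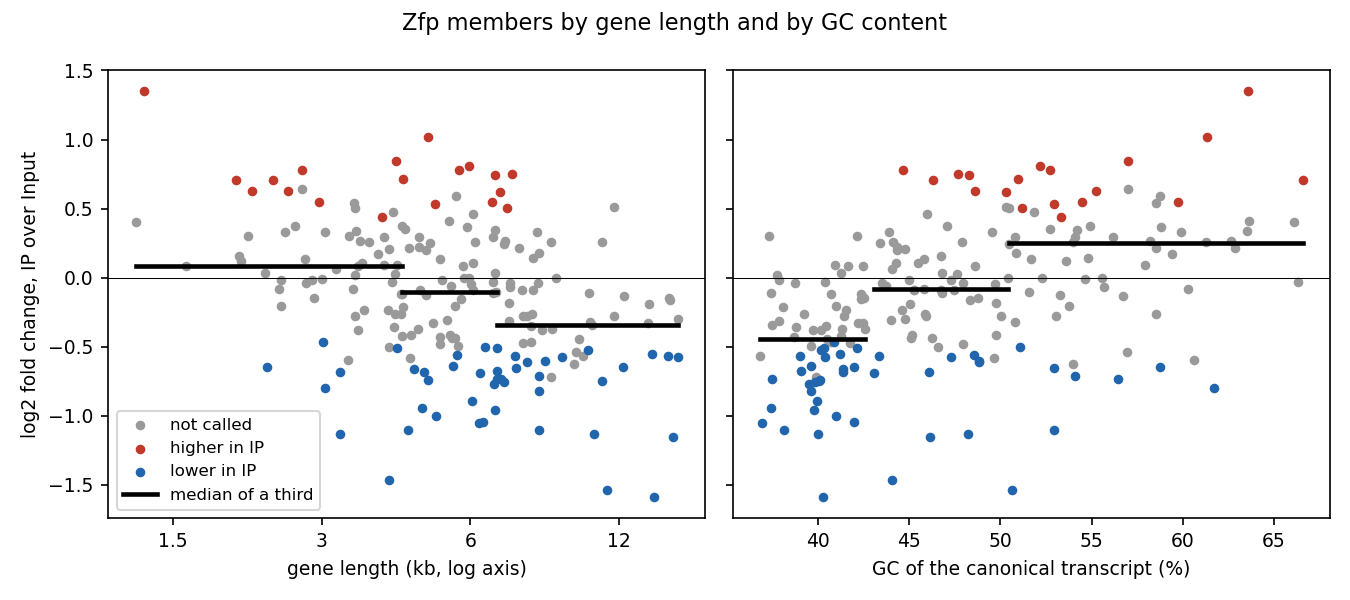
Each point is 1 of the 196 Zfp genes, with the log2 fold change of IP over Input on the y axis and, on the x axes, gene length in kilobases (left, log axis) or transcript GC content in percent (right). Bars are the medians of 3 bins, which are 0.08, -0.11 and -0.34 from short to long and -0.45, -0.08 and 0.25 from low to high GC.

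The classes by finger number differed in their counts of calls, which were not tested against each other. Of the 107 genes with 10 or more fingers 3 rose and 26 fell (median -0.15). Of the 53 with 5 to 9 fingers 7 rose and 11 fell (median -0.06), and of the 31 with 1 to 4 fingers 8 rose and 8 fell (median -0.01). The 5 genes with no match to the finger pattern had 1 rise, Zfp330, and 0 falls. The backgrounds are 22.0% higher and 16.8% lower over protein-coding genes with the count minimum. Genes with 10 or more fingers were also poorer in GC, with a median of 44.6% against 50.3% in those with 1 to 4. The median member has 10 fingers, and the rho of log2 fold change with finger number was -0.22, nearer to 0 than that with GC content.

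A KRAB motif was found in 70 of the 196 proteins, or 35.7%, against 1.52% of 17290 protein-coding genes. The search used a strict pattern on the canonical protein, so KRAB boxes of another form would be missed. Genes that match it are called KRAB genes here, and the others may include genes with a KRAB box. Of the KRAB genes 4 rose and 15 fell with a median of -0.27, and of the 126 others 15 rose and 30 fell with a median of -0.09. The backgrounds are 22.0% higher and 16.8% lower over protein-coding genes with the count minimum. KRAB genes are also poorer in GC, with a median of 42.4% against 50.0% in the others. Within the lowest GC bin 13 of 38 KRAB genes and 14 of 27 others fell and 0 rose, with medians of -0.40 and -0.55. The shares that fell were 34.2% and 51.9%. Among protein-coding genes in that GC range 31.2% were lower and 7.89% higher, so the KRAB share that fell is near the background. In the middle bin 3 KRAB genes rose and 2 fell of 27, with a median of -0.00, and 3 others rose and 8 fell of 38, with a median of -0.09. In the highest bin 1 KRAB gene rose and 0 fell of 5, with a median of 0.26, and 12 others rose and 8 fell of 61, with a median of 0.24. Among protein-coding genes in the middle and highest GC ranges 16.4% and 29.8% were higher and 18.8% and 11.7% lower. The difference between KRAB genes and others was not tested.

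Neighbouring Zfp genes were described as runs of at least 4 Zfp genes, of any count, with starts no more than 1 Mb apart. There were 23 such runs with 208 genes, of which 99 are among the 196. Genes in runs had a median log2 fold change of -0.10 (11 rose and 18 fell) and the 97 outside runs of -0.13 (8 rose and 27 fell). In runs 11.1% rose and 18.2% fell, and outside them 8.25% rose and 27.8% fell. The backgrounds are 12.9% higher and 17.1% lower over all genes tested and 22.0% and 16.8% over protein-coding genes with the count minimum. In runs the share that fell was near both, and the share that rose was near the first and below the second. The same backgrounds apply to the counts of single runs. The difference of 0.03 between the medians in and outside runs was 0.06, -0.18 and 0.12 within replicates 1, 2 and 3. It changed sign with the library left out (-0.11 to 0.11), so no difference between clustered and single genes was detectable. The genes in runs were not otherwise alike to those outside. Their median length was 4482 against 6745 bases and their median GC content 45.3% against 48.0%. The KRAB motif was found in 55 of the 99 against 15 of the 97. The part of these features in the comparison was not tested. Of the 16 runs with at least 3 of the 196 genes, 7 had a positive and 9 a negative median, from -0.68 to 0.54. Rises were called in 6 of them, falls in 8 and neither in 2, and none held calls of both directions by edgeR or DESeq2, though 5 did at an unadjusted p under 0.05. Many of these runs held 1 call or none and so could not hold both, and whether neighbours move together was not tested.

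The lowest medians belonged to a run on chromosome 9 (19533398 to 20516705, mm39) and one on chromosome 17 (32984470 to 33850753). On chromosome 9 the median of 5 genes was -0.68, and Zfp26, Zfp266 and Zfp317 fell, while Zfp426 was at 0.20. Zfp26 reaches the count minimum in Input alone. Zfp266 had 19.2, 19.6 and 22.3 CPM in IP against 36.8, 31.2 and 35.4 CPM in Input (-0.76 ± 0.14, adjusted p = 0.00587). On chromosome 17 the median of 9 genes was -0.65, and 5 of them fell, namely Zfp414, Zfp563, Zfp799, Zfp81 and Zfp871. Zfp563 had 12.7, 11.5 and 11.0 CPM in IP against 21.4, 21.6 and 17.2 CPM in Input (-0.77 ± 0.17, adjusted p = 0.0102), while Zfp811, the highest of the run, was at 0.08. The calls of Zfp26 and Zfp266 on chromosome 9 and of Zfp563 and Zfp799 on chromosome 17 were kept without any one library, whereas Zfp317 and Zfp414 lost theirs in 4 of the 6 such fits and Zfp81 and Zfp871 in 5. Under the length and GC correction Zfp26, Zfp414 and Zfp799 kept the call, and Zfp266 (-0.30), Zfp317 (-0.37), Zfp563 (-0.30), Zfp81 (-0.09) and Zfp871 (-0.21) did not. Both runs are rich in the KRAB motif and poor in GC. The motif was found in 4 of 5 and 8 of 9 genes, and the median GC content is 41.4% and 41.2%.

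The highest medians belonged to runs on chromosomes 15 and 7. On chromosome 15 (75488528 to 76809648) the median of 3 genes was 0.54, with Zfp251 called. On chromosome 7 a run of 5 genes (6134490 to 7212997) had a median of 0.41 with Zfp444 and Zfp954 called, a run of 7 genes (23781349 to 24926932) had a median of 0.35 with Zfp428 called, and a further run of 7 (126832233 to 127485168) had a median of 0.35 with Zfp553, Zfp688 and Zfp771 called. Zfp688 had 15.2, 16.5 and 19.1 CPM in IP against 7.88, 11.5 and 10.2 CPM in Input (0.78 ± 0.20, adjusted p = 0.0192), a call that was lost without IP replicate 2, IP replicate 3 or Input replicate 3. The call of Zfp553 was lost in each of the 6 fits without 1 library, with the replicate block (0.44, adjusted p = 0.0528) and with library totals alone, and that of Zfp954 in 2 of the 6. Under the length and GC correction Zfp771 (0.39, adjusted p = 0.102) and Zfp553 (0.39, adjusted p = 0.0505) were not called. These 4 runs hold 0, 2, 0 and 1 genes that match the KRAB motif, which can miss KRAB boxes. Their median GC content is 51.0%, 46.3%, 52.7% and 54.0%. Chromosome 7 also holds the run of Zfp84, with 0 higher, 3 lower and a median of -0.09 over 11 genes. In that run 1 gene was higher and 3 lower at an unadjusted p under 0.05. Over all 48 Zfp genes of chromosome 7, 7 rose and 7 fell.

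**Figure D5:**
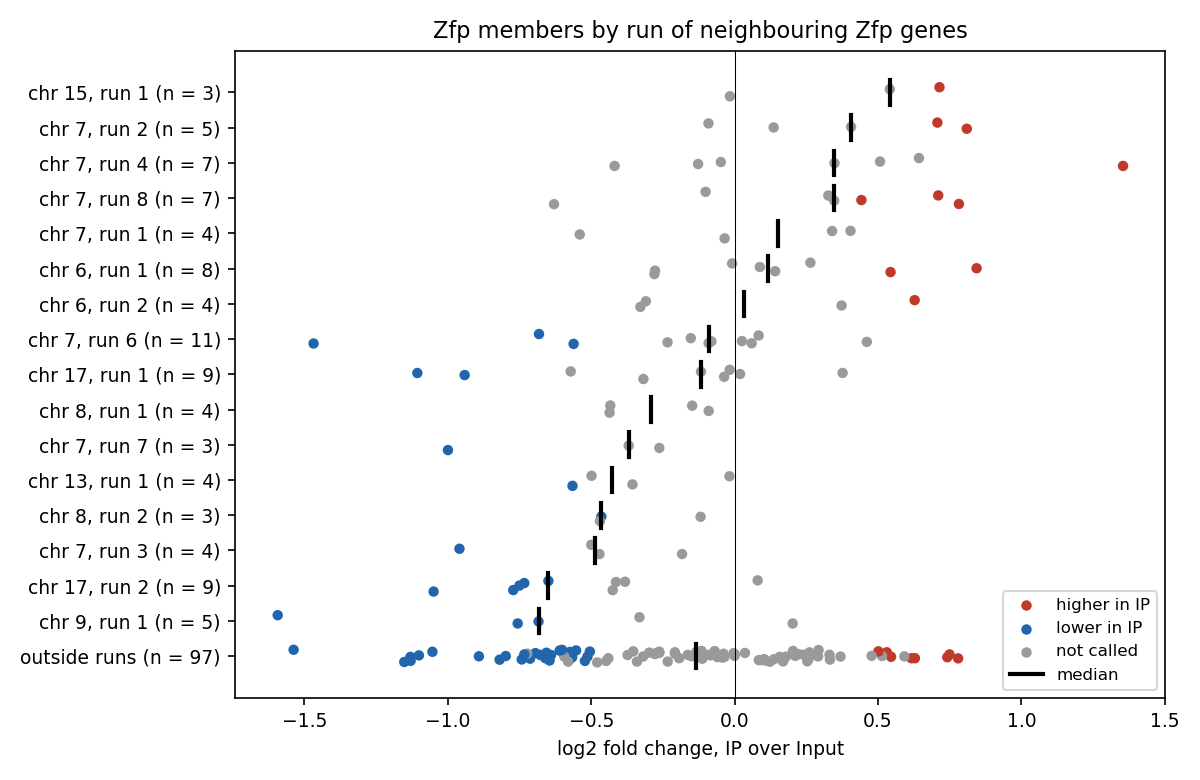
Each point is the log2 fold change of IP over Input (x axis) of 1 Zfp gene, in rows for the 16 runs with at least 3 of the 196 genes, numbered along each chromosome, and for the 97 genes outside runs (bottom row). Bars are medians, which run from 0.54 on chromosome 15 to -0.68 on chromosome 9, and no row of a run holds both called rises and called falls. Many of these rows hold 1 call or none and so could not hold both.

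Genes named for other zinc finger families, with the same count minimum, were read from the same fit, where the backgrounds are 22.0% higher and 16.8% lower over protein-coding genes with that minimum. Of 23 genes with a Zbtb name, 2 rose and 6 fell (median log2 fold change -0.36), and without Zbtb8os, which holds no finger, the median of the 22 others was -0.38. Of 10 Zscan and Zkscan genes 2 rose and 4 fell (median -0.09). Of 9 Klf genes 6 fell and 0 rose, with a median of -0.98, also 0 rises by DESeq2 or at an unadjusted p under 0.05. Of 30 genes of the KRAB corepressor and heterochromatin machinery 29 were tested, and 1 rose and 6 fell with a median of -0.26. The 20.7% that fell is near the 17.1% lower among all genes tested, while the 3.45% that rose is below the 12.9% higher among them. Trim28, the corepressor that KRAB boxes bind, had 144, 140 and 125 CPM in IP against 138, 118 and 137 CPM in Input (0.06 ± 0.13, adjusted p = 0.765). Its groups overlapped. Mphosph8, the chromodomain subunit of the HUSH silencing complex, had 24.2, 31.6 and 16.3 CPM in IP against 49.5, 52.5 and 51.0 CPM in Input (-1.09 ± 0.23, adjusted p = 0.00872). The remodeller Smarcad1 and the NuRD subunit Mta2 also fell, as did the methyl-DNA reader Mbd2 (adjusted p = 0.0490) and the deacetylase Hdac1 (adjusted p = 0.0491), both close to the threshold. The HUSH subunit Tasor was called lower too, but its groups overlapped, with 6.01, 6.68 and 7.82 CPM in IP against 29.7, 7.75 and 19.9 CPM in Input (-1.48 ± 0.42, adjusted p = 0.0299). Gatad2a, a further NuRD subunit, rose (0.48 ± 0.15, adjusted p = 0.0375).

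Related finger genes can share reads. Of the 196 genes 89 have no 75-base window, the length of a read, in the exons of another gene, the median share is 0.24% and 39 genes have 10% or more, mostly with genes that overlap them, since 4 genes have 10% or more elsewhere in the genome. Across the 196 genes the log2 fold change had a rho of -0.00 with this share. Shared reads can move a gene up or down, so this rho cannot show whether they moved single genes. Over the 137 genes with under 5% of windows shared the median was -0.15, with 10 rises. The falls under this rule are not given here, so the balance of rises and falls cannot be read from it.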

How the data were processed

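Poly(A) RNA of 3 IP and 3 Input libraries was compared. Reads were paired, of 75 bases, without molecular identifiers. The submitters' processing notes name HISAT2, featureCounts, DESeq2 and the build mm39; versions, annotation and strand setting are not given in the sources used here, so genes that overlap on either strand may have reads in common. The table holds the deposited raw read counts per gene, the authors' normalized signal (counts divided by 1 size factor per library) and the authors' FPKM. Log2 fold changes of IP over Input, with p-values, were deposited by the authors too. All coordinates are those of the table.

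Only the counts were tested, with edgeR 4.0.16 in R 4.3.3 (quasi-likelihood test, TMM, filterByExpr, two-sided, Benjamini-Hochberg over 18640 genes), and SE is the log2 fold change divided by the square root of F. The script was tested on simulated data. Groups and replicate numbers came from sample titles. Same-numbered IP and Input libraries share a pool of tissue, per the design text, and their deviations from group means correlated at 0.26, 0.14 and 0.10; a model with a replicate block was tried as well. Replicates are pools of 3 animals, so their spread understates that between animals.

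Members, gene lists and tests were chosen with earlier results of these data known. Named genes follow a rule: smallest adjusted p, largest changes, highest counts, longest and shortest genes, extremes of each run, and a role list. Zfp266, Zfp317, Zfp414, Zfp553, Zfp563, Zfp81, Zfp871 and Zfp954 were named after their values were seen. Fingers (Cys, 2 to 4 residues, Cys, 12, His, 3 to 5, His), the KRAB motif, GC content and shared 75-base windows were computed with Biopython 1.88 from the canonical coding sequences and transcripts of GENCODE M39 (GRCm39), in place of the RefSeq proteins first planned. Table gene length was at or below the GENCODE exon length in all 196 genes. Alternatives were DESeq2 1.42.0, other scalings and filters, corrections for length and GC with splines of 4 degrees of freedom, other member rules, and libraries left out.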

Additional observations from a re-analysis of the deposited data

How the results depend on the processing

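The median log2 fold change over the Zfp genes (-0.12) was -0.087 with DESeq2 and with RLE factors, -0.221 with library totals alone (which also moved the median of all genes tested from -0.067 to -0.172), -0.047 with the length correction and -0.045 with it and the replicate as a block, but 0.053 with the length and GC correction and 0.061 with that and the block, where the sign turned; the cause was not tested. It was -0.133 with both libraries of replicate 1 or of replicate 3 left out, -0.211 with a minimum of 250 counts, -0.084 with 1000 counts, -0.091 with 500 counts in both groups and -0.153 with under 5% of windows shared. Higher and lower calls (19 and 45) were 22 and 45 with DESeq2, 15 and 54 with library totals alone, 21 and 46 with the block, 28 and 31 with the length correction, 31 and 34 with it and the block, 27 and 21 with the length and GC correction and 31 and 22 with that and the block. Of the 64 calls, 33 were kept under the length and GC correction. Higher and lower calls numbered 10 and 25 with both libraries of replicate 2 left out and 1 and 2 with both of replicate 3 left out, where fewer samples remain. There were 29 lower with 1000 counts, where fewer genes count, and 10 higher with under 5% of windows shared. For these member rules the other direction is not given here. Without 1 library the calls ranged from 9 to 22 higher and from 21 to 41 lower. The longest bin minus the shortest (-0.43) was -0.219 with the length correction, -0.206 with it and the block, -0.139 with the length and GC correction and -0.133 with that and the block, and from -0.530 to -0.377 without 1 library. The difference between genes in and outside runs lay between -0.108 and 0.105 without 1 library. Zfp207 (-0.11) was 0.51 (adjusted p = 0.0179) with the length and GC correction and 0.52 (adjusted p = 0.00817) with the block added, and Zfp738 (-0.57) was 0.0368 and 0.0237. Of the values of named genes under alternatives, 1265 kept direction and side of the threshold, 141 lost the call, 30 gained one and 4 reversed. Pools of 3 animals and 3 libraries a group limit the calls. With the replicate block Zfp423 and Zfp703 (-0.58, adjusted p = 0.0218) gained a call, Zfp553 lost its call, and the calls of the other genes the report names did not change. The length and GC correction, with and without the block, the rule of 500 counts in both groups and the rule on shared windows were added after the data were seen.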
